A study of Mus musculus with 12 samples.

Results

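The voltage-gated sodium and calcium channel genes of the mouse cochlea were followed at postnatal day (P)6 after deletion of *Jag1*, a Notch ligand, from supporting cells. They comprised 37 of the 28686 gene symbols in the count table: the *Scn* symbols with a number followed by a or b, and the *Cacna1*, *Cacna2d*, *Cacnb* and *Cacng* symbols, with *Cacna1d* and *Cacnb2* not analysed here. The cochlear sensory epithelium was sequenced as bulk RNA from 6 mutants, written Sox2CreER;Jag1-/- in the labels and Sox2CreER/+ Jag1fl/fl in the study, and from 6 Sox2+/+ littermate controls, with the strain given in the labels as C57BL/6;129SV. The study's methods instead name C57bl6/J for the Sox2-CreERT2 line and FVB/n for the Jag1flox line. Tamoxifen (75 µg/g body weight per the study's methods) was given to all pups at P0 and P1. Tamoxifen activates the CreER recombinase, which is made here from the *Sox2* locus and which the study describes as expressed in every subtype of supporting cell. The controls carried no CreER and had 1 or both *Jag1* alleles floxed, so mutants and controls differed at both *Sox2* and *Jag1*. The libraries of each genotype are described as biological replicates.

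Voltage-gated channels open when the membrane is depolarized. Sodium channel alpha subunits (the *Scn* symbols ending in a) form the pore that carries the upstroke of the action potential, and the beta subunits (those ending in b) are single-pass membrane proteins that tune gating and adhere to neighbouring proteins. Calcium channel alpha 1 subunits form the calcium pore. Those analysed here fall into the L type (*Cacna1c*, *Cacna1f*, *Cacna1s*), the P/Q, N and R types (*Cacna1a*, *Cacna1b*, *Cacna1e*) and the low-threshold T type (*Cacna1g*, *Cacna1h*, *Cacna1i*). The alpha 2 delta and beta subunits bring the L, P/Q, N and R type pores to the membrane. The gamma family holds a subunit of the skeletal muscle calcium channel (*Cacng1*) and a group of auxiliary subunits of AMPA-type glutamate receptors, called TARPs, of which *Cacng2* encodes stargazin. In the cochlea, sodium channels fire the action potentials of the spiral ganglion neurons, and calcium channels trigger transmitter release from hair cells.

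The ion that each pore passes is set by 1 residue in the pore loop of each of its 4 domains, and the loop of domain III separates the families compared here. It is shown for 7 pore-forming members, each as 45 coding bases read 5′ to 3′ on the coding strand of GRCm38, with the codon of the selectivity residue in capitals. The sequences are from GENCODE M21 transcripts, and the span from first to last base includes an intron in each except *Cacna1g*.
*Scn8a* (chr15:101029851-101031742, plus strand): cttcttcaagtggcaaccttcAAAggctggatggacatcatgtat
*Scn9a* (chr2:66493907-66494620, minus strand): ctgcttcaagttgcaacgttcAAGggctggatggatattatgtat
*Scn7a* (chr2:66683288-66684026, minus strand): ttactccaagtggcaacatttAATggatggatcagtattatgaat
*Cacna1a* (chr8:84581317-84583568, plus strand): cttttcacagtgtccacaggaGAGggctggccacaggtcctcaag
*Cacna1b* (chr2:24650619-24651115, minus strand): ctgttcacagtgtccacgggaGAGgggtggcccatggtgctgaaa
*Cacna1e* (chr1:154443993-154444906, minus strand): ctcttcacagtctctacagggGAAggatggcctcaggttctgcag
*Cacna1g* (chr11:94426450-94426494, minus strand): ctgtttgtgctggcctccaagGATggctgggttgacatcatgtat
The sodium channels *Scn8a* and *Scn9a* held a lysine codon (AAA or AAG) there, as did *Scn3a*, *Scn4a* and *Scn10a*. *Scn7a*, which encodes a channel that opens to extracellular sodium rather than to voltage, held an asparagine codon (AAT). For *Scn11a* the search used here returned no stretch, so its residue at this place was not determined. A glutamate codon (GAG or GAA) stood at this place in the 6 calcium channel genes analysed of the L, P/Q, N and R types. An aspartate codon (GAT) stood there in the 3 T type genes, in which the whole stretch lay in a single exon.

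The gamma members divide by the end of their coding sequence, which in TARPs is the ligand for the scaffold proteins of the synapse. The last 10 codons before the stop are shown for 4 members, with the last 4 codons in capitals. *Cacng2* was chosen as the member that passed the adjustment over all genes in the edgeR comparison below. *Cacng4*, *Cacng7* and *Cacng5* are the gamma genes with the highest levels in controls.
*Cacng2* (chr15:77995152-77995181, minus strand): aacacagccaaccgccggACCACGCCCGTA
*Cacng4* (chr11:107734783-107734812, minus strand): agcatgctgaaccggcggACGACTCCCGTG
*Cacng7* (chr7:3366916-3366945, plus strand): gaccatctccacatctccACTTCGCCGTGC
*Cacng5* (chr11:107877355-107877384, minus strand): gactatgaccagatgtcaTCATCTCCCTGC
In *Cacng2* and *Cacng4* the last 4 codons spell threonine, threonine, proline and valine in different codons, and *Cacng3* ended likewise. *Cacng5* and *Cacng7* ended in serine, proline and cysteine codons.

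The libraries held 28498549 to 36134983 counted reads. Levels are given in CPM, read counts scaled to a common library total, with TMM scaling, a normalization that sets the libraries against each other by their typical gene. *Jag1* lay between 83.0 and 118 CPM in controls and between 24.2 and 42.9 CPM in mutants, with no overlap, and fell by 1.48 on the log2 scale (SE 0.13, edgeR adjusted p = 0.000258). 1 mutant, mutant 4, stood apart. The summed level of 17 neuron markers was 1610 CPM in mutant 4, between 279 and 767 CPM in the other mutants and between 254 and 383 CPM in controls, and the peripherin gene *Prph* stood at 155 CPM in mutant 4 and at no more than 1.35 CPM in any other mouse. Of the 17 neuron markers, 14 had an unadjusted edgeR p under 0.05 in the direction of the mutants. The sum of 13 Schwann cell markers was between 590 and 1642 CPM in controls and between 1345 and 6623 CPM in mutants, with mutant 4 the lowest of the mutants, and 12 of 13 had an unadjusted p under 0.05. Hair cell markers summed to between 540 and 605 CPM in controls and between 589 and 645 CPM in mutants, with 1 of 12 at an unadjusted p under 0.05, and supporting cell markers to between 5329 and 6430 CPM in controls and between 5028 and 6064 CPM in mutants, with 4 of 12 lower at an unadjusted p under 0.05 and 1 of these called. Skeletal muscle markers summed to no more than 27.6 CPM in any mouse, smooth muscle and pericyte markers to between 784 and 934 CPM in controls and between 725 and 862 CPM in mutants (1 of 6 tested lower at an unadjusted p under 0.05), and macrophage markers to between 268 and 326 CPM in controls and between 215 and 287 CPM in mutants (4 of 7 lower at an unadjusted p under 0.05). Over all genes tested, 6.52% were higher and 4.04% lower in mutants at an unadjusted edgeR p under 0.05, and 0.0813% were called lower. No marker was at 0 in every library. In bulk tissue, more cells of a type and more RNA per cell cannot be told apart. Results that follow are given with and without mutant 4 where it bears on them.

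In control cochleae, levels of different genes are set side by side per kilobase of exon, that is CPM divided by the length of the merged exons of the gene (n = 6 mice, mean ± SD). Among the sodium channel alpha genes, *Scn7a* (0.776 ± 0.299), *Scn3a* (0.533 ± 0.293) and *Scn8a* (0.480 ± 0.163), the channel of mature nodes of Ranvier, had overlapping ranges. *Scn1a* followed at 0.246 ± 0.111 and *Scn4a*, the skeletal muscle channel, at 0.127 ± 0.0247 CPM per kilobase. The range of *Scn1a* overlapped those of *Scn3a*, *Scn8a* and *Scn4a*. *Scn2a1*, an alpha gene outside the selection, stood at 0.344 ± 0.0350 CPM per kilobase. *Scn9a*, *Scn10a* and *Scn11a*, the channels of peripheral sensory and sympathetic neurons, were the lowest, between 0.00759 and 0.0267 CPM per kilobase. In reads, controls held between 2 and 22 on *Scn9a*, between 0 and 5 on *Scn10a* and between 0 and 4 on *Scn11a*.

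Among the sodium channel beta genes, *Scn2b* stood at 3.83 ± 0.598, *Scn4b* at 1.39 ± 0.297 and *Scn3b* at 0.234 ± 0.0868 CPM per kilobase. Their ranges did not overlap between mice.

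The T type gene *Cacna1g* was the most abundant of the 9 calcium channel alpha 1 transcripts analysed, at 7.14 ± 0.741 CPM per kilobase or 49.7% of their sum. The R type *Cacna1e* followed at 3.60 ± 0.579. *Cacna1h* (1.5 ± 0.149) and the L type *Cacna1c* (1.43 ± 0.253) could not be ordered, since their ranges overlapped. *Cacna1a*, the P/Q type pore of many nerve terminals, stood at 0.460 ± 0.0735, *Cacna1i* at 0.144 ± 0.0179 and the N type *Cacna1b* at 0.0625 ± 0.0317 CPM per kilobase. The skeletal muscle gene *Cacna1s* had between 3 and 5 reads and the retinal gene *Cacna1f* between 0 and 3 reads in each control.

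*Cacnb3* led the alpha 2 delta and beta genes analysed, at 24.0 ± 1.51 CPM per kilobase. It was followed in order by *Cacna2d2* (9.21 ± 0.564), *Cacna2d1* (5.98 ± 1.20), *Cacnb1* (2.79 ± 0.280), *Cacna2d3* (1.71 ± 0.190), *Cacnb4* (0.485 ± 0.159) and *Cacna2d4* (0.0931 ± 0.0171). No 2 neighbours in this order overlapped, but the order depended on the length used. Per kilobase of the longest transcript, *Cacna2d3* (4.04) stood above *Cacnb1* (3.71) with overlapping ranges, and the ranges of *Cacna2d1* and *Cacna2d2* overlapped. Among the gamma genes *Cacng4* (28 ± 4.53) and *Cacng7* (17.7 ± 2.38) held nearly all of the summed level, 59.8% and 37.9% of it, and their ranges met at 21.1 CPM per kilobase. *Cacng5* (0.469 ± 0.241), *Cacng1* (0.278 ± 0.0644), *Cacng8* (0.187 ± 0.0342), *Cacng2* (0.104 ± 0.0350) and *Cacng6* (0.0582 ± 0.0618) followed, each overlapping the next, and *Cacng3* had between 0 and 2 reads in each control. The leading gene of each of these 3 calcium channel groups was the same when the longest transcript replaced the merged exons.

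**Figure D1:**
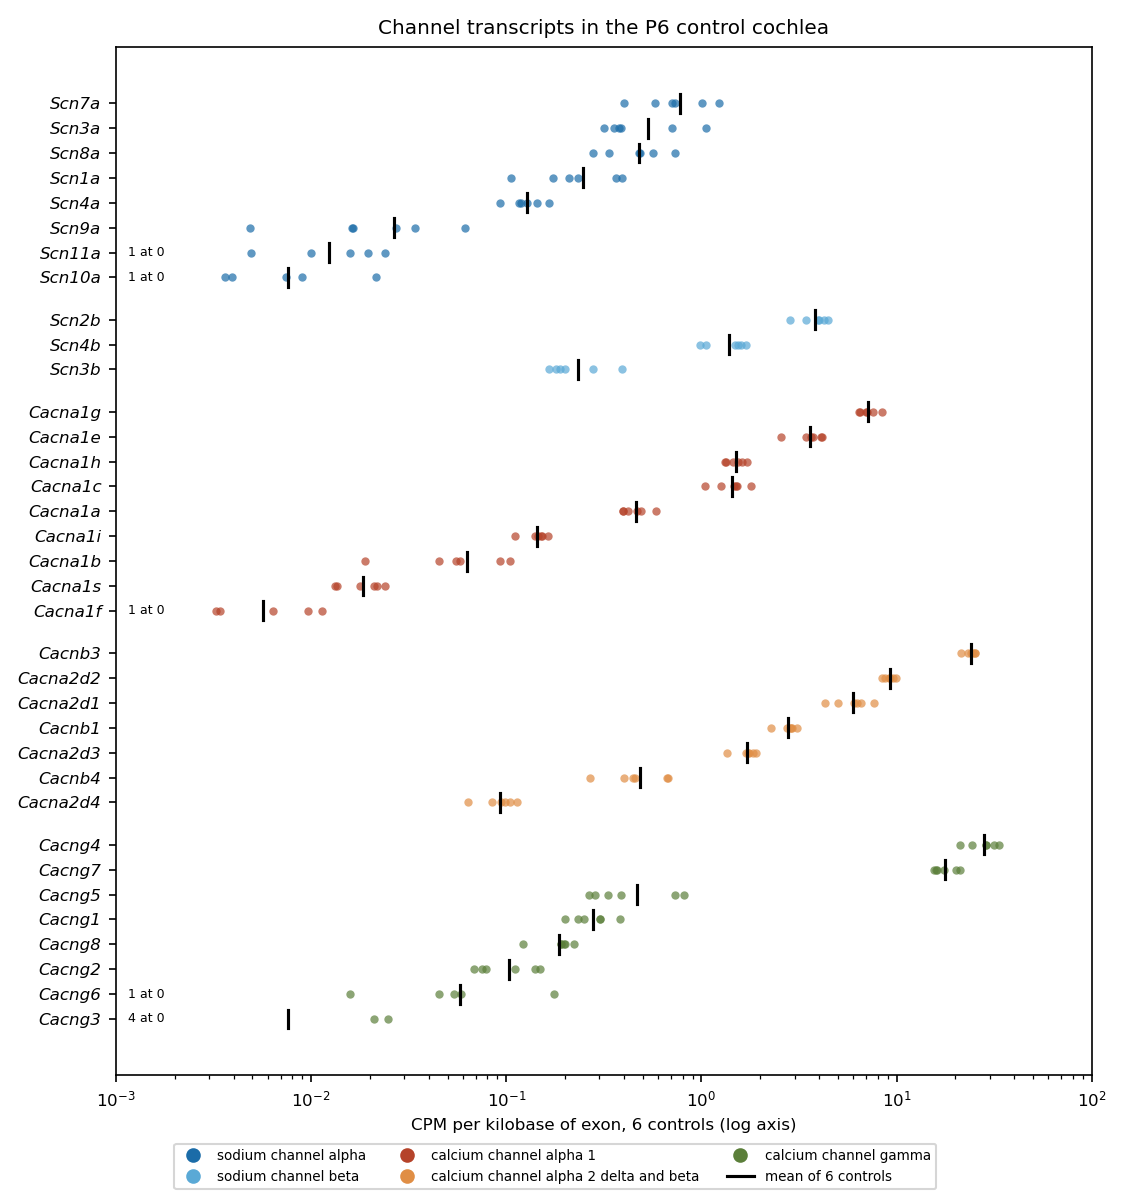
Level of 35 channel transcripts in the 6 control cochleae, in CPM per kilobase of exon on a log axis, grouped by family and ordered by mean. Points are mice, black bars are means, and mice at 0 are counted at the left. Cacng4 stands at 28, Cacnb3 at 24.0 and Cacna1g at 7.14 CPM per kilobase.

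The genotypes were then compared. Of the 37 members, 34 had a mean count of at least 5 and were tested among 18459 genes by edgeR's quasi-likelihood test. *Cacna1f*, *Cacna1s* and *Cacng3* were too low, and *Cacng6*, *Scn10a* and *Scn11a* passed only through their counts in mutants. At an adjusted p under 0.05, 1 member, *Cacng2*, was higher in mutants, where 0.108% of all genes tested were called higher. No member was called lower by edgeR, against 0.0813% of all genes. Neither limma-voom nor DESeq2 called a member lower. DESeq2 called 6 of the 30 members to which it gave an adjusted p, all higher (*Cacng2*, *Scn3b*, *Cacna1b*, *Scn1a*, *Cacna1a* and *Cacnb4*), beside 2.57% of all genes, and limma-voom called 0.

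Counts without adjustment are given over the 31 members that had a mean count of at least 5 in controls alone, which leaves out the 3 that passed through mutants. The shares over all genes tested were not restricted in this way. Of these 31, 15 (48.4%) had an edgeR p under 0.05 and a higher level in mutants, beside 6.52% of all genes tested. 2 members, *Cacna1g* and *Cacng8*, had an unadjusted p under 0.05 and a lower level, beside 4.04% of all genes. Of the 31 fold changes 25 (80.6%) were above 0, beside 50.9% over all genes tested, and their median was 0.27 on the log2 scale, against 0.003. When mutant 4 was left out, 13 members had an unadjusted p under 0.05 in the higher direction, beside 5.64% of all genes, and the median was 0.21. The 2 raised members that no longer did were *Scn7a* and *Cacna1i*. In the lower direction 1 member, *Cacna1g*, remained without mutant 4, beside 3.85% of all genes. Among the 15 raised members, which were picked for a higher level in mutants, mutant 4 was the highest sample for 13. 2 members, *Cacng2* and *Scn3b*, had every mutant above every control, which was the case for 0.618% of all genes tested. The per-mouse levels of these 2 genes are given with their families.

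**Figure D2:**
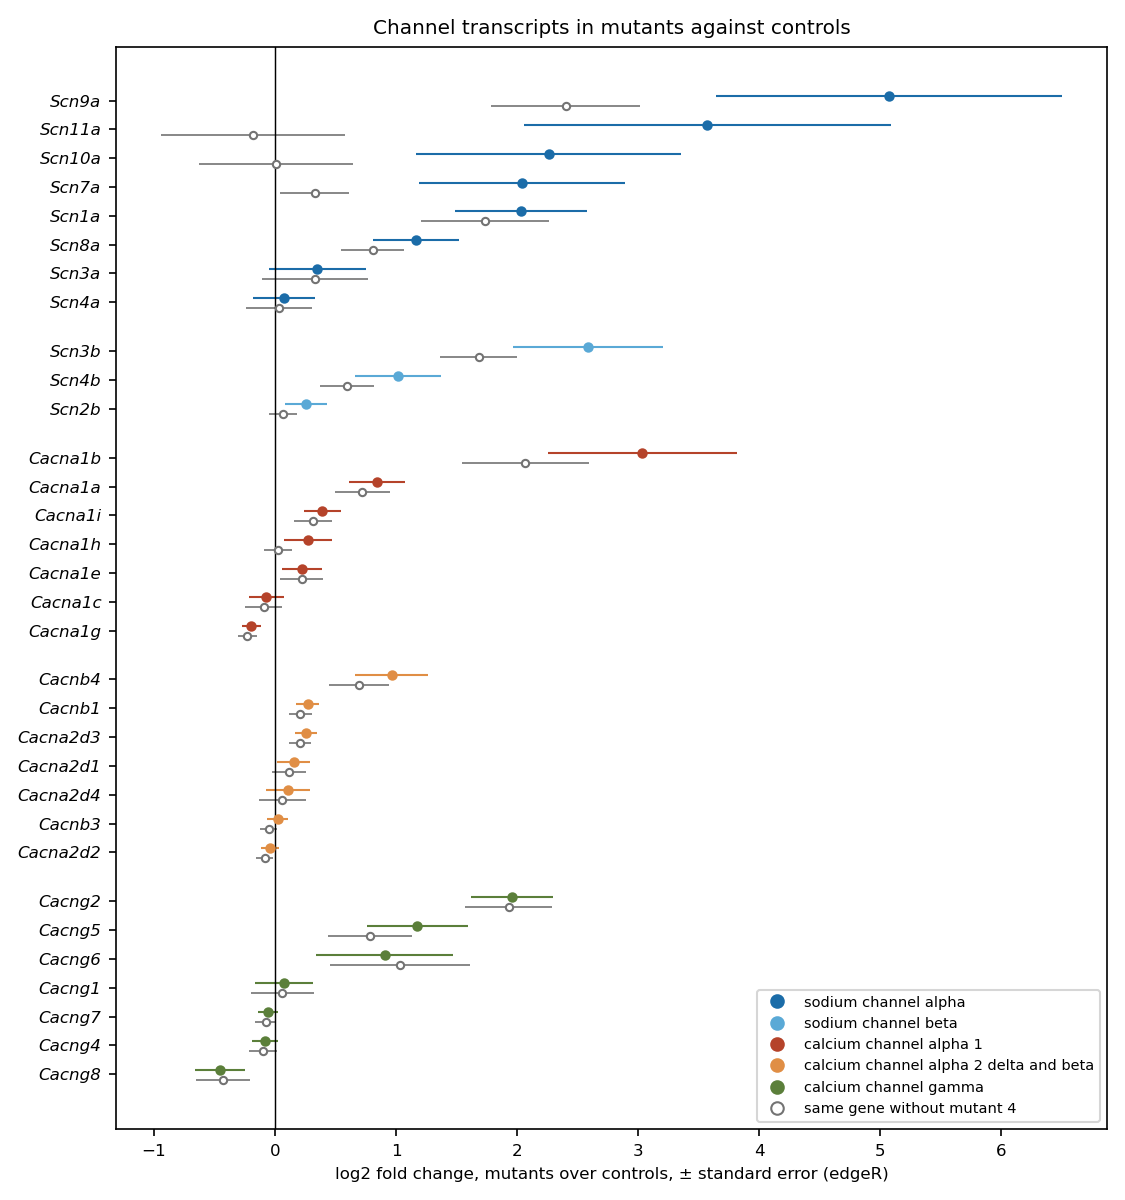
Log2 fold change of 32 tested members in mutants over controls (edgeR, bars are standard errors), grouped by family. Filled points use all 12 mice and open points leave out mutant 4. The filled points run from -0.45 for Cacng8 to 5.07 for Scn9a, and the open point of Scn9a is at 2.4.

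All 7 sodium channel alpha genes that reached the count minimum in controls had fold changes above 0, and 4 had an unadjusted edgeR p under 0.05: *Scn1a*, *Scn7a*, *Scn8a* and *Scn9a*. *Scn10a* and *Scn11a* passed the minimum only through mutants and are not counted. None of the alpha genes passed the adjustment over all genes. *Scn1a*, a channel of neuronal cell bodies and axon initial segments, lay between 1.18 and 4.38 CPM with a median of 2.46 in controls and between 1.94 and 21.5 CPM with a median of 9.36 in mutants. 5 of 6 mutants were above the highest control, and mutant 5 lay within the control range. The mean was 4.08 times that of controls, with a log2 fold change of 2.03 (SE 0.54, exact permutation p = 0.0238, edgeR adjusted p = 0.129). Without mutant 4 the log2 fold change of *Scn1a* was 1.74.

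*Scn8a* lay between 4.39 and 11.5 CPM (median 7.61) in controls and between 8.17 and 35.5 CPM (median 14.3) in mutants. 4 mutants exceeded every control, and all 6 exceeded the control median. The log2 fold change was 1.16 (SE 0.35, exact permutation p = 0.0152, edgeR adjusted p = 0.176) and 0.81 without mutant 4.

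*Scn9a*, a channel of sensory neurons that carry pain, was low in controls, between 0.0623 and 0.784 CPM (median 0.277), and reached 59.4 CPM in mutant 4, or 2035 reads. The other 5 mutants lay between 0.383 and 4.37 CPM, and the median of all 6 was 1.75. Its log2 fold change of 5.07 (SE 1.43, exact permutation p = 0.0108, edgeR adjusted p = 0.152) came to 2.4 without mutant 4. Exons of *Scn9a* share 1.41% of their length with an antisense gene, *Gm13629*, and the strand setting of the counting is not given in the sources used here.

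*Scn7a* and *Scn11a* rested on mutant 4. *Scn7a* lay between 2.93 and 9.03 CPM in controls (median 5.28), between 4.43 and 11.0 CPM in 5 mutants and at 105 CPM in mutant 4. With that mouse the log2 fold change was 2.04 (exact permutation p = 0.158, edgeR adjusted p = 0.416), and without it 0.33. *Scn11a* had 176 reads in mutant 4, or 5.14 CPM, and between 0 and 4 reads in every other mouse. Its unadjusted edgeR p was 0.0370 with mutant 4 and 0.816 without it. As *Scn11a* passed the count minimum only through mutants, these values are a description only. *Scn10a*, which is expressed with *Scn11a* in nociceptive neurons, likewise had 50 reads in mutant 4 and no more than 5 in any other mouse.

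*Scn3a*, *Scn4a* and *Scn10a* did not reach an unadjusted p under 0.05. *Scn3a*, the isoform of immature neurons, varied widely, between 3.93 and 13.2 CPM in controls and between 3.56 and 17.7 CPM in mutants (log2 fold change 0.35, SE 0.40).

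All 4 sodium channel beta genes also had fold changes above 0, and 3 had an unadjusted edgeR p under 0.05, *Scn3b* and *Scn4b* among them. *Scn3b* separated the genotypes without overlap, between 0.9 and 2.14 CPM in controls (median 1.06) and between 2.21 and 25.4 CPM in mutants (median 4.63). The highest value was mutant 4, and the highest of the other 5 mutants was 6.73 CPM. The log2 fold change of *Scn3b* was 2.58 (SE 0.62, edgeR adjusted p = 0.0991), and the exact permutation p was 0.00216, the smallest that 6 mice against 6 allow. Without mutant 4 the log2 fold change was 1.68 and the edgeR adjusted p was 0.0436, with an SD among mutants of 1.97 CPM in place of 8.86 CPM.

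*Scn4b*, a subunit linked to resurgent sodium current, lay between 4.92 and 8.44 CPM in controls (median 7.51) and between 4.84 and 31.9 CPM in mutants (median 11.7). 5 mutants were above every control and mutant 5 was below every control. The log2 fold change was 1.02 (SE 0.35, exact permutation p = 0.0563, edgeR adjusted p = 0.266), and 0.59 without mutant 4. *Scn2b* had a log2 fold change of 0.26 (SE 0.18) with mutant 4 at 34.7 CPM and the other mutants at no more than 22.9 CPM, and its unadjusted edgeR p was 0.162.

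Among the calcium channel alpha 1 genes, *Cacna1a*, *Cacna1b* and *Cacna1i* had an unadjusted edgeR p under 0.05 in the higher direction and *Cacna1g* in the lower, of 7 tested. *Cacna1a* lay between 4.50 and 6.70 CPM in controls (median 5.06) and between 5.17 and 13.1 CPM in mutants (median 9.92). Mutants 1, 2, 4 and 6 were above every control, and mutants 3 and 5 lay within the control range. The log2 fold change of *Cacna1a* was 0.84 (SE 0.23, exact permutation p = 0.0260, edgeR adjusted p = 0.124) and 0.72 without mutant 4. Its exons share 3.81% of their length with the antisense gene *Gm16183*.

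*Cacna1b* lay between 0.187 and 1.04 CPM in controls (median 0.565) and between 0.547 and 17.6 CPM in mutants (median 2.95). Mutant 4 was the highest, the other mutants reached 5.31 CPM at most, and mutant 5 was within the control range. The log2 fold change was 3.03 (SE 0.78, exact permutation p = 0.0130, edgeR adjusted p = 0.118), and 2.07 without mutant 4. The T type *Cacna1i* lay between 1.1 and 1.62 CPM in controls (median 1.45) and between 1.48 and 2.34 CPM in mutants (median 1.92), with a log2 fold change of 0.39 (SE 0.15, exact permutation p = 0.0195, edgeR adjusted p = 0.343). Every mutant was above the control median of *Cacna1i*, and 4 were above the highest control. Without mutant 4 its log2 fold change was 0.31 (edgeR adjusted p = 0.576).

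*Cacna1g*, the most abundant of the alpha 1 transcripts analysed, was lower in mutants. It lay between 64.9 and 85.1 CPM in controls (median 71.3) and between 55.5 and 70.9 CPM in mutants (median 62.6). All 6 mutants were below the control median and 4 were below the lowest control. The mutant mean was 0.874 times that of controls (log2 fold change -0.19, SE 0.08, exact permutation p = 0.0325, edgeR adjusted p = 0.341), and without mutant 4 the log2 fold change was -0.23. *Cacna1c*, *Cacna1e* and *Cacna1h* did not reach an unadjusted p under 0.05. *Cacna1e*, the second in level, lay between 64.9 and 105 CPM in controls and between 64.5 and 146 CPM in mutants, with a 95% interval of the log2 fold change from -0.10 to 0.55. *Cacna1h* had a log2 fold change of 0.27 with all mice and 0.03 without mutant 4.

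**Figure D3:**
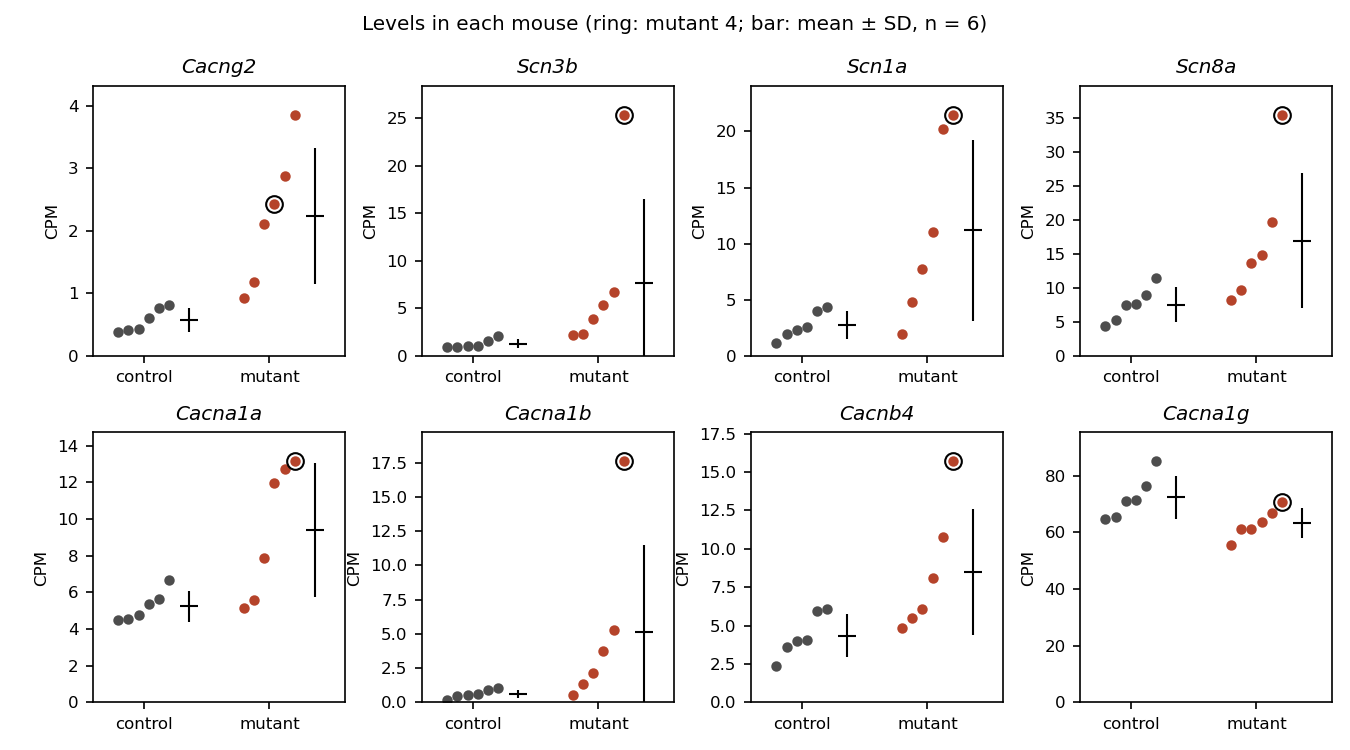
CPM of 8 channel transcripts in each of the 12 mice, ordered by value within a genotype. The ring marks mutant 4, and bars are the mean ± SD of 6 mice, cut at 0. Mutants and controls do not overlap for Cacng2 and Scn3b, and mutant 4 is the highest mutant in every panel except Cacng2.

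The alpha 2 delta and beta genes, which carry pores to the membrane, included *Cacna2d3*, *Cacnb1* and *Cacnb4* at an unadjusted edgeR p under 0.05, of 7 tested. *Cacnb4*, a beta subunit of central nerve terminals, lay between 2.4 and 6.06 CPM in controls (median 4.03) and between 4.86 and 15.7 CPM in mutants (median 7.07). 4 mutants were above every control and all 6 above the control median. Its log2 fold change was 0.96 (SE 0.30, exact permutation p = 0.0173, edgeR adjusted p = 0.182), and 0.70 without mutant 4. A gene on the opposite strand, *A430018G15Rik*, covers 16% of the exons of *Cacnb4*, and reads of the pair cannot be told apart where the counting ignored strand.

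The fold changes of *Cacnb1*, the beta subunit of skeletal muscle channels, and *Cacna2d3* were small. *Cacnb1* lay between 10.2 and 14.0 CPM in controls (median 13.0) and between 13.1 and 18.2 CPM in mutants (median 15.2), a log2 fold change of 0.27 (SE 0.10, exact permutation p = 0.0152, edgeR adjusted p = 0.267). *Cacna2d3* lay between 11.8 and 16.6 CPM in controls (median 15.2) and between 15.7 and 20.6 CPM in mutants (median 17.7), a log2 fold change of 0.25 (SE 0.09, exact permutation p = 0.0108, edgeR adjusted p = 0.270). A transcript on the opposite strand, *Gm11629*, covers 1.77% of the exons of *Cacnb1*. For both genes 4 mutants were above the highest control and all 6 above the control median. Mutant 4 was the highest, and without it the log2 fold change of each was 0.21 (edgeR adjusted p = 0.472 for each).

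*Cacnb3*, the leading gene of the group, lay between 85.4 and 101 CPM in controls (median 98.2) and between 83.7 and 121 CPM in mutants (median 91.8), and its log2 fold change of 0.02 had a 95% interval from -0.14 to 0.19. Among *Cacna2d1*, *Cacna2d2* and *Cacna2d4*, log2 fold changes lay between -0.04 and 0.15, and no unadjusted p was under 0.05.

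*Cacng2* was the member that passed the adjustment over all genes. It lay between 0.376 and 0.820 CPM in controls (median 0.523) and between 0.932 and 3.85 CPM in mutants (median 2.27), that is between 12 and 26 reads per control and between 33 and 127 reads per mutant. Every mutant was above every control, the highest being mutant 2, followed by mutants 1 and 4. The mutant mean of *Cacng2* was 3.90 times that of controls, and the log2 fold change was 1.96 (SE 0.34, edgeR adjusted p = 0.0365). The exact permutation p for *Cacng2* was 0.00216, the smallest possible. Without mutant 4 the log2 fold change was 1.93 and the edgeR adjusted p was 0.0394. The call was lost in 7 of the 12 analyses that each left out 1 mouse, in which the edgeR adjusted p ran from 0.0112 to 0.105, and with limma-voom. Exons of *Cacng2* share 5.86% of their length with the antisense gene *A730060N03Rik*.

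*Cacng5*, which encodes a TARP of the group that ends in cysteine, lay between 1.01 and 3.14 CPM in controls (median 1.38) and between 1.5 and 8.88 CPM in mutants (median 3.25). 3 mutants were above every control, and the log2 fold change was 1.18 (SE 0.42, exact permutation p = 0.0411, edgeR adjusted p = 0.275), or 0.78 without mutant 4. *Cacng8* lay between 0.285 and 0.523 CPM in controls (median 0.455) and between 0.282 and 0.383 CPM in mutants (median 0.305), with a log2 fold change of -0.45 (SE 0.21, exact permutation p = 0.0216, edgeR adjusted p = 0.470). All 6 mutants were below the control median of *Cacng8*, on between 8 and 18 reads per mouse. Without mutant 4 the log2 fold change of *Cacng8* was -0.43 (edgeR adjusted p = 0.615), and its unadjusted p was above 0.05 there, with DESeq2 and without the filter on low counts. The abundant *Cacng4* lay between 75.5 and 119.6 CPM in controls (median 103) and between 85.9 and 115 CPM in mutants (median 89.7), with a log2 fold change of -0.08 and a 95% interval from -0.29 to 0.13. *Cacng7* had a log2 fold change of -0.05 (95% interval -0.22 to 0.11), *Cacng1* of 0.07 and *Cacng6* of 0.91, and none of these 3 reached an unadjusted p under 0.05. *Cacng3*, which was not tested, had 25 reads in mutant 4 and 0 in the other mutants.

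The 15 raised members, those with an unadjusted p under 0.05 and a higher level, ordered the mice in a shared way. They were picked from these same values, so the choice itself favoured a mutant as the highest mouse. Of all 34 tested members, 3 of which passed the count minimum only through mutants, mutant 4 was the highest mouse for 19. The same counts over all genes tested are not given here. Mutant 4 was the highest mouse for 13 of the 15, and mutant 2 for *Cacng2*. Mutant 5 was the lowest mutant for 11 and no higher than the highest control for 12. Among controls, control 1 was among the 2 highest for 13 of 15. The sum of the neuron markers was likewise highest in mutant 4, lowest among mutants in mutant 5 (279 CPM) and highest among controls in control 1 (383 CPM). Parts of this order were not particular to neuron markers. Hair cell markers were also highest in mutant 4, but by little, at 645 CPM against at most 627 CPM in the other mutants. Schwann cell markers were lowest among mutants in mutant 4 (1345 CPM). Control 1 was also the highest control for Schwann cell (1642 CPM), hair cell (605 CPM) and skeletal muscle (25.3 CPM) markers. It was not for supporting cell, smooth muscle and pericyte, or macrophage markers. When the mean log2 level of the neuron markers in each mouse was entered as a covariate, all 15 fold changes became smaller in size and their median went from 1.16 to 0.09 on the log2 scale. In that fit edgeR called no member, 1 had an unadjusted p under 0.05, and *Cacng2* had a log2 fold change of 1.1 (adjusted p = 0.926). The marker level itself differed between the genotypes, so the fit takes from the genotype whatever it shares with the markers, and the part of neuron content in these differences was not tested beyond it.

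Several members lie in clusters of neighbouring genes, and members of 1 cluster differed in level and in fold change (GRCm38, GENCODE M21). On chromosome 2, on the minus strand, stand *Scn3a* (chr2:65457118-65567627), *Scn1a* (chr2:66270778-66440840), *Scn9a* (chr2:66480080-66634962) and *Scn7a* (chr2:66673425-66784914). Their log2 fold changes without mutant 4 were 0.33, 1.74, 2.4 and 0.33, and *Scn2a1*, a relative on the same chromosome with an older symbol outside the selection, had one of 0.21. On chromosome 9, *Scn10a* (chr9:119608456-119719322) and *Scn11a* (chr9:119753759-119825456) lie together and were the 2 least abundant alpha genes. Also on chromosome 9, *Scn2b* (chr9:45117782-45130070) and its neighbour *Scn4b* (chr9:45138395-45154152) had log2 fold changes of 0.07 and 0.59 without mutant 4, and *Scn3b* (chr9:40269217-40291618) one of 1.68. Among the gamma genes, *Cacng1*, *Cacng4* and *Cacng5* (chr11:107874605-107915055) lie together on chromosome 11, and of these *Cacng5* had an unadjusted p under 0.05. *Cacng2* (chr15:77991748-78120028) has no other gamma gene on its chromosome.

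**Figure D4:**
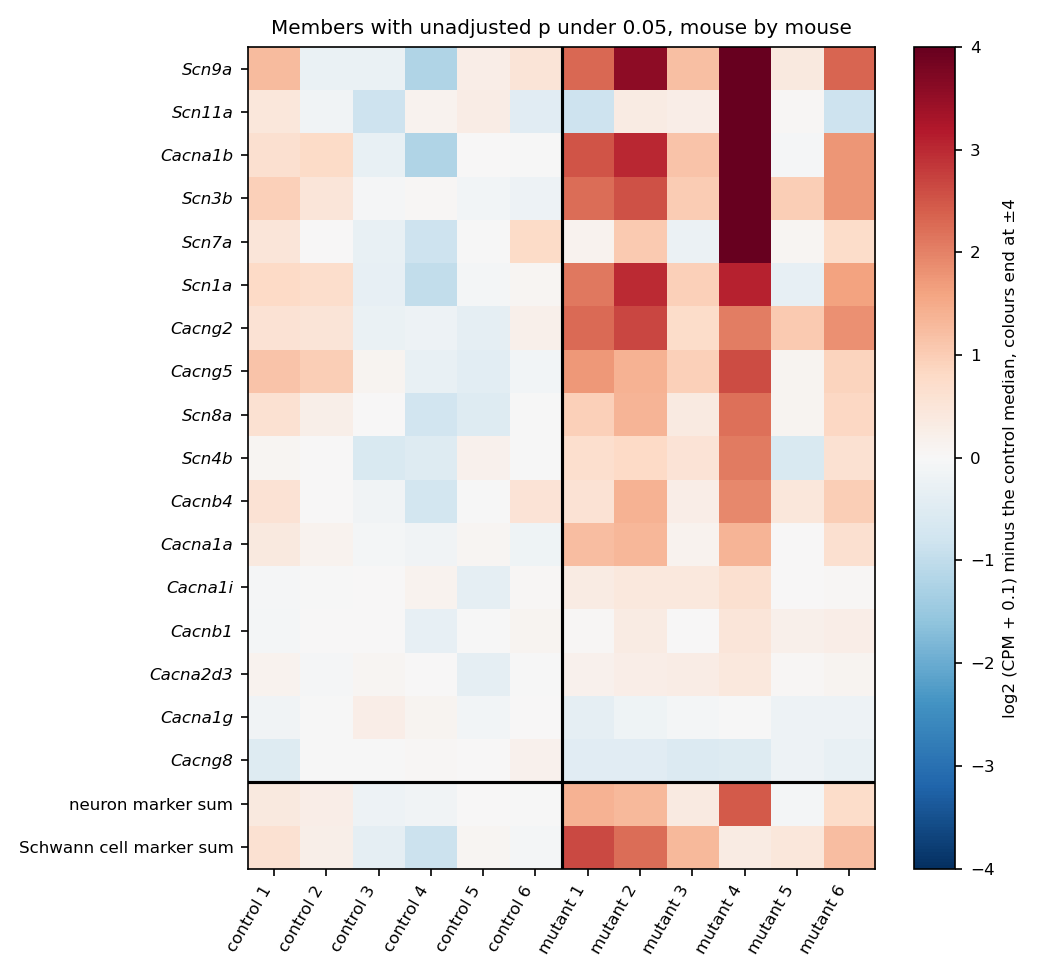
17 members with an unadjusted edgeR p under 0.05 in each of the 12 mice, as log2(CPM + 0.1) minus the control median, with the summed markers of neurons and of Schwann cells in the bottom lines. Scn11a, among the 17, passed the count minimum only through mutants. Red is above and blue below the control median, and colours end at 4. Mutant 4 is the reddest column for most members and for the neuron markers, but not for the Schwann cell markers, and mutant 5 resembles the controls.

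A list of genes whose proteins bind, anchor or modulate these channels, or the related leak channel, was read beside them. It was chosen with earlier results of these data known, so its counts are a description and not independent support. Of 51 genes 50 were in the table and all 50 were tested. By edgeR 1 was called higher and 0 lower, beside 0.108% and 0.0813% of all genes. At an unadjusted edgeR p under 0.05, 13 were higher and 2 lower, beside 6.52% and 4.04% of all genes. The median log2 fold change was 0.07. The called gene was *Rims1*, an active zone scaffold that binds presynaptic calcium channels. It lay between 2.37 and 3.33 CPM in controls and between 3.42 and 9.64 CPM in mutants (log2 fold change 1.24, SE 0.22, edgeR adjusted p = 0.0432). Every mutant was above every control, which was the case for 0.618% of all genes tested. The call of *Rims1* held in 3 of the 12 analyses that each left out 1 mouse, in which the edgeR adjusted p reached 0.120, and was lost with limma-voom (adjusted p = 0.110). The tether between RIM proteins and calcium channels, *Rimbp2*, had a log2 fold change of 0.69. For the partners of sodium channels, the values were 1.6 for *Fgf12*, which binds the intracellular tail of the alpha subunits, and 0.83 for *Sptbn4*, the spectrin of initial segments and nodes. The calcium sensor *Cabp1* stood at 1.49, the calcium channel adaptor *Stac2* at 2.08, the kinase subunit *Camk2b* at 0.54 and *Fam155a*, a subunit of the sodium leak channel, at 0.59. *Gria2*, an AMPA receptor subunit with which TARPs assemble, lay between 0.530 and 2.26 CPM in controls and between 2.17 and 9.79 CPM in mutants, a log2 fold change of 1.61 (SE 0.41, edgeR adjusted p = 0.108). With the neuron marker covariate no gene of the list was called, and the log2 fold changes were 0.52 for *Rims1*, 0.25 for *Rimbp2*, 0.32 for *Fgf12*, 0.11 for *Sptbn4* and 0.53 for *Gria2*. They were 0.79 for *Cabp1*, 0.61 for *Stac2*, 0.07 for *Camk2b* and 0.10 for *Fam155a*.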

How the data were processed

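One library was made per P6 cochlea sample and read single-end over 100 nucleotides. For each mouse the authors deposited counts of reads per gene symbol, not normalized. The submitters' processing notes name, without order, Trimmomatic 0.32, STAR 2.4.2a, HTSeq 0.9.1, DESeq2 1.10.1 and GRCm38.p4. Annotation and strand setting are not given in the sources used here. The deposited table of the authors' own DESeq2 comparison (mean normalised count, log2 fold change, standard error, statistic, p-value and adjusted p-value) was not used.

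Genes with 5 or more reads on average were compared by edgeR 4.0.16 in R 4.3.3 (quasi-likelihood F-test, TMM, robust, no covariate) and called at a Benjamini-Hochberg adjusted p under 0.05 over all genes tested. Intervals are normal 95% intervals from the standard error. Single genes were also compared by a two-sided exact permutation test of log2(CPM + 0.1). Alternatives were DESeq2 1.42.0, limma-voom (limma 3.58.1), RLE factors, other filters, the replicate number as a block, a neuron marker covariate and leaving out each mouse. Named are members with an unadjusted p under 0.05, the most abundant member of each family and partner genes with an unadjusted p under 0.01. Some of these genes and sequences are not reported here, although counts of members and partner genes include them. Positions, lengths and sequences are from GENCODE M21, the latter from the longest complete coding transcript. The members, marker lists and partner list were chosen with earlier results of these data known.

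At 28498549 to 36134983 reads per mouse, members under about 20 reads have the largest counting error. Libraries of 1 genotype differed by 13.4 to 70.6 times the counting variance, so none repeated another. Mice with the same replicate number did not deviate together (correlations from -0.187 to 0.272), so the numbers were not taken as pairs.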

Additional observations from a re-analysis of the deposited data

Results flagged for a closer look

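Within each genotype, members and named partner genes were searched for a mouse whose gap to the next value exceeded Dixon's 95% limit for 6 values. Of 84 groups searched, 11 held such a mouse, and 8 of the 11 were mutant 4. Chance gives about 5% where values are normal and genes independent, which was not tested here. *Scn10a*, *Scn11a* and *Cacng6*, which are among the 11, passed the count minimum only through mutants. The filter favoured high values of these genes in mutants, so their flags there are a description only. In mutant 4, *Scn7a* stood at 105 CPM against at most 11.0 CPM in the other mutants, *Scn9a* at 59.4 against 4.37, *Scn2b* at 34.7 against 22.9, *Scn4b* at 31.9 against 13.1 and *Scn3b* at 25.4 against 6.73 CPM. *Cacna1b* stood there at 17.6 CPM against at most 5.31, *Scn11a* at 5.14 against 0.121 and *Scn10a* at 1.46 against 0.0890 CPM. The same mouse held the highest sum of neuron markers, and the part of these in the channel values was not tested beyond the covariate fit.

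The other values were spread over mice. *Cacng6* was at 0.347 CPM in control 5 and at 0.455 CPM in mutant 2, both on 15 reads or fewer. *Cacng8* was at 0.285 CPM in control 1, the lowest control and within the range of the mutants.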

How the results depend on the processing

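Counts of called genes moved with the model. By edgeR 35 genes were called, with 1 member and 1 partner gene among them. DESeq2 called 619 genes, 6 members and 8 partner genes, limma-voom 19, 0 and 0, and no filter gave 57 genes. With the neuron marker covariate, 5 genes, 0 members and 0 partner genes were called and 1 member had an unadjusted p under 0.05 in place of 18 (*Scn11a*, which passed the filter through mutants, among the 18). Under the replicate block, which pairs mice by number, 131 genes, 1 member and 2 partner genes were called, and *Cacng2* had an edgeR adjusted p of 0.00946. Under the block, RLE factors, no filter and a mean count of at least 20, no call changed among the members tested. Leaving out 1 mouse gave between 14 and 357 genes, between 0 and 5 members and between 0 and 8 partner genes, the highest without mutant 5. Without mutant 5, *Cacng2*, *Scn3b*, *Scn1a*, *Cacna1a* and *Cacna1b* were called, and without mutant 4, *Cacng2* and *Scn3b*. *Cacng2* lost its call without control 2, 3, 4, 5 or 6 or mutant 2 or 6. The cause of these shifts was not tested.

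Log2 fold changes changed sign as follows. With the neuron marker covariate they were -0.29 for *Cacna1h*, -0.10 for *Cacnb3*, -0.11 for *Cacng1*, -0.20 for *Cacng5*, -1.5 for *Scn10a*, -2.12 for *Scn11a*, -0.0277 for *Scn2b*, -0.16 for *Scn4a*, -0.20 for *Scn4b*, -0.76 for *Scn7a* and -0.26 for *Scn9a*. *Scn4a* was at -0.00671 with limma-voom. When 1 mouse was left out, values ran from -0.17 to 0.0034 for *Cacna1c*, -0.0498 to 0.0626 for *Cacnb3*, -0.0259 to 0.18 for *Cacng1*, -0.10 to 0.00369 for *Cacng7*, -0.18 to 3.83 for *Scn11a*, -0.00861 to 0.66 for *Scn3a* and -0.13 to 0.19 for *Scn4a*. Depth limits *Cacna1f*, *Cacna1s* and *Cacng3*, which were too low to test, and *Cacng6*, *Scn10a* and *Scn11a*, which had mean counts under 5 in controls.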
